A study of Mus musculus with 16 samples.

Results

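The 8 genes Klf4, Klf5, Myh10, Lgals3, Ly6a, Vcan, Tnc and Postn, which are used as markers of synthetic or modulated vascular smooth muscle cells, were examined in the aorta of mice with reduced kidney mass. They were taken by gene symbol from the 54532 genes of the count and FPKM tables, and each symbol matched 1 gene. RNA from the whole aorta of male C57BL/6J mice was sequenced, with 1 library per mouse and 4 mice in each of 4 groups. Surgery began at 12 weeks of age. In 5/6 nephrectomy (5/6 Nx), the poles of one kidney are ligated and the other kidney is removed, and Sham mice underwent the operation without ligation or removal. After 2 weeks of recovery the mice received a purified diet for 4 weeks, which the deposited labels give as 30 days. The 5/6 Nx-HPi-Lp group ate 2% phosphorus and 2.5% protein, the 5/6 Nx-HPi-Hp group 2% phosphorus and 18% protein, and the 5/6 Nx-LPi-Lp group 0.3% phosphorus and 2.5% protein. Sham mice ate the same high-phosphorus, low-protein diet as the 5/6 Nx-HPi-Lp mice, so no group combined Sham surgery with another diet. The comparison of 5/6 Nx-HPi-Lp with Sham therefore asks about surgery, that with 5/6 Nx-HPi-Hp about protein, and that with 5/6 Nx-LPi-Lp about phosphorus. In 5/6 Nx-HPi-Hp or 5/6 Nx-LPi-Lp against Sham, surgery and diet differed together and cannot be told apart.

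Smooth muscle cells of the artery wall are not terminally fixed. In the contractile state they make smooth muscle myosin, smooth muscle actin and their regulators, and after injury or in disease they can lower these, divide, migrate and make new matrix. The transcription factors KLF4 and KLF5 are known for acting in this switch, the non-muscle myosin MYH10 for marking immature and proliferating smooth muscle, galectin-3 and the surface protein Sca-1 (the product of Ly6a) for marking modulated cells in lesions, and versican, tenascin-C and periostin for forming the provisional matrix around such cells. None of these genes belongs to smooth muscle cells alone. Macrophages make galectin-3, endothelial cells and adventitial progenitors carry Sca-1, and fibroblasts make all 3 matrix proteins.

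Library totals lay between 13659525 and 57276915 counts. Replicates 2 and 3 of 5/6 Nx-HPi-Lp were the deepest, at 57276915 and 46499243, and no other library exceeded 24204348. The part of depth in the spread within that group was not tested. Mitochondrially encoded genes took 5.20% ± 1.01 of counts in Sham (mean ± SD, n = 4), against 23.5% ± 3.36 in 5/6 Nx-HPi-Lp, 19.96% ± 8.78 in 5/6 Nx-HPi-Hp and 17.4% ± 2.83 in 5/6 Nx-LPi-Lp. Myh11, which marks smooth muscle, stood at 796 ± 39.0 FPKM in Sham and 103 ± 45.0 in 5/6 Nx-HPi-Lp. The summed FPKM of 10 adipocyte markers was 389.9 to 856.1 in Sham and 1143 to 8997 over the 12 5/6 Nx mice. No call of the 8 genes changed in fits that left out the mitochondrially encoded genes. Beyond that, the parts that fat or mitochondrial RNA play in the results below were not tested. In 5/6 Nx-HPi-Hp replicate 4 the mitochondrial share was 9.50% and the adipocyte sum 1143, each the lowest of the 5/6 Nx libraries, and it stood near Sham for several of the 8 genes.

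On the FPKM scale, which divides by gene length, the 8 genes spanned more than 2 orders of magnitude. Averaged over the 16 libraries, Ly6a stood highest at 112.8 FPKM, followed by Postn at 101.8, Lgals3 at 24.8, Myh10 at 24.3, Klf4 at 18.2, Tnc at 10.5, Vcan at 5.81 and Klf5 at 0.695. The wall of these aortas therefore held abundant Ly6a and Postn RNA in every group, while Klf5 was close to the lower end of what was tested.

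**Figure D1:**
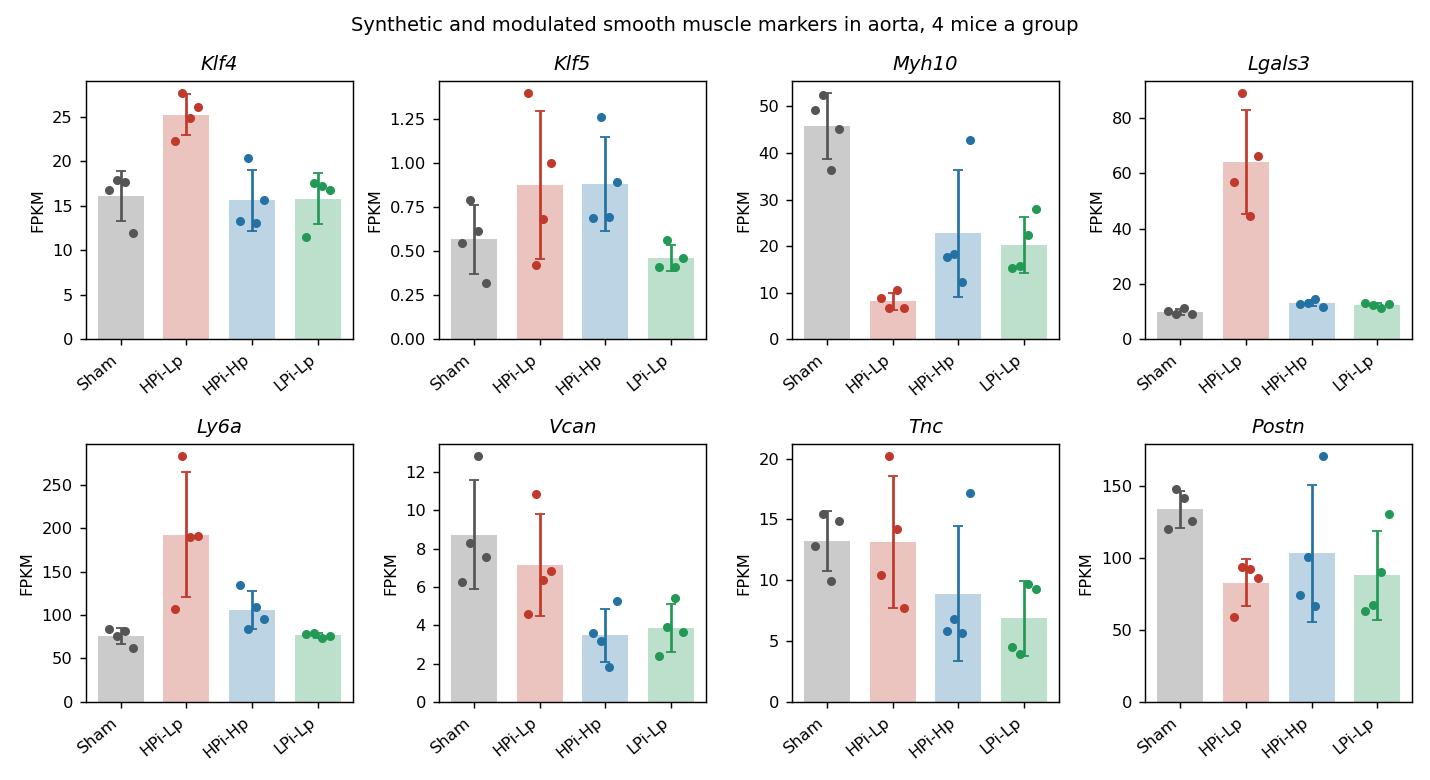
FPKM of the 8 genes in each mouse, one panel a gene, by group (Sham and 5/6 Nx on each diet). Bars are means, whiskers SD, points the 4 mice in replicate order from left to right. Lgals3 is 44.4 to 89.0 in 5/6 Nx-HPi-Lp and at most 14.7 elsewhere, while Myh10 is highest in Sham and lowest in 5/6 Nx-HPi-Lp.

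A gene was called where edgeR's quasi-likelihood test gave a Benjamini-Hochberg adjusted p of at most 0.05 over all genes tested and the change was 2-fold or more in either direction (a log2 fold change of 1 or more in size). All 8 genes passed the filter on low counts in all 6 comparisons. In 5/6 Nx-HPi-Lp against Sham, 3 of the 8 were called, against 22.2% of all 16513 genes tested: Lgals3 and Ly6a were higher and Myh10 was lower (15% and 7.18% of all genes were called in these directions). Klf4 and Postn passed on p but changed by less than 2-fold, and the FPKM of the groups did not overlap for these 5 genes, against 41.8% of all genes. The median log2 fold change was 0.27 over the 8 and -0.0027 over all genes.

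Against the other diets the same 2 to 3 genes were called. In 5/6 Nx-HPi-Lp against 5/6 Nx-HPi-Hp, 2 of the 8 were called, Lgals3 higher and Myh10 lower, where 8.12% of all genes were called, 5.01% higher and 3.11% lower. The groups did not overlap for 3 genes, against 20.6% of all. In 5/6 Nx-HPi-Lp against 5/6 Nx-LPi-Lp, 3 were called, Lgals3 and Ly6a higher and Myh10 lower, with 11.9% of all genes called, 7.90% higher and 3.98% lower. Here 4 genes did not overlap, against 24.6% of all. These 3 comparisons share the 5/6 Nx-HPi-Lp libraries, and their agreement is not independent.

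The other two 5/6 Nx groups gave a different pair of calls against Sham. Myh10 and Vcan were called lower and none of the 8 higher in 5/6 Nx-HPi-Hp, where 12.2% of all genes were called, 9.41% higher and 2.75% lower. The same was found in 5/6 Nx-LPi-Lp, where 10.9% of all genes were called, 8.79% higher and 2.08% lower. The groups did not overlap for 3 of the 8 genes in each comparison, against 33.4% and 34% of all genes. Both comparisons share the Sham libraries. Between 5/6 Nx-LPi-Lp and 5/6 Nx-HPi-Hp edgeR called 0 of the 8 and 0% of all 15850 genes, with 2 of the 8 and 1420 of all genes at an unadjusted p under 0.05, and DESeq2 called 0 of the 8, with 27 genes higher and 48 lower in all. The FPKM of these groups did not overlap for 2 of the 8 genes, Klf5 and Ly6a, against 4.93% of all.

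**Figure D2:**
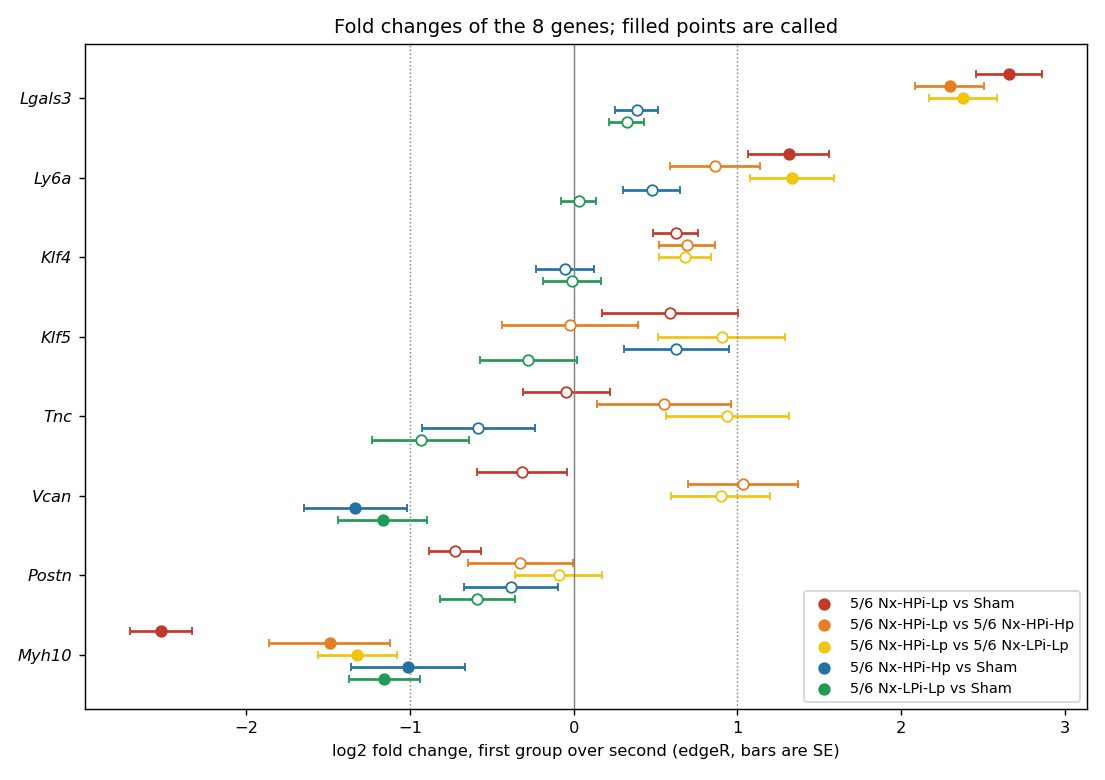
Log2 fold change of each gene (first group over second, edgeR, whiskers SE) in 5 comparisons, marked by colour. Filled points are called, open points are not, and dotted lines mark a 2-fold change. Lgals3 lies right of the line at 1 in the 3 comparisons of 5/6 Nx-HPi-Lp, and Myh10 lies left of the line at -1 in all 5.

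Among the transcription factors, Klf4 was modestly higher in 5/6 Nx-HPi-Lp than in the other groups and no comparison of Klf5 was called. Klf4 (ENSMUSG00000003032, mm10 chr4:55527143-55532466, minus strand) encodes a zinc finger factor known to repress contractile genes. Its FPKM was 16.8, 17.9, 17.7 and 11.9 in the 4 Sham mice and 22.3, 27.7, 24.9 and 26.2 in 5/6 Nx-HPi-Lp. It was 13.3, 20.4, 13.1 and 15.7 in 5/6 Nx-HPi-Hp and 11.5, 17.6, 17.3 and 16.8 in 5/6 Nx-LPi-Lp. Every 5/6 Nx-HPi-Lp mouse thus lay above every other mouse, and the remaining 3 groups overlapped throughout. The log2 fold change of Klf4 in 5/6 Nx-HPi-Lp was 0.62 (SE 0.14) against Sham, 0.69 (SE 0.17) against 5/6 Nx-HPi-Hp and 0.68 (SE 0.16) against 5/6 Nx-LPi-Lp, with edgeR adjusted p of 0.0058, 0.030 and 0.018. Each difference was smaller than 2-fold. That against 5/6 Nx-HPi-Hp had an adjusted p above 0.05 in 5 of 8 fits that left out 1 library (up to 0.089) and in the replicate block (0.075). In whole aorta, fewer cells of one type and less RNA per cell cannot be told apart, for this gene and for those that follow.

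Of the 7 other Kruppel-like factors listed, none was called in 5/6 Nx-HPi-Lp against Sham. Klf2, an endothelial flow-responsive factor, had a log2 fold change of 0.46 there, Klf10 of 0.95 and Klf15 of -0.72.

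Klf5 (ENSMUSG00000005148, mm10 chr14:99298691-99315036, plus strand), a factor known for driving growth of smooth muscle, had 29 to 160 counts a library. Its FPKM was 0.544, 0.788, 0.612 and 0.316 in Sham and 1.39, 0.420, 0.680 and 0.996 in 5/6 Nx-HPi-Lp. It was 0.688, 1.26, 0.690 and 0.888 in 5/6 Nx-HPi-Hp and 0.406, 0.564, 0.411 and 0.461 in 5/6 Nx-LPi-Lp. The 5/6 Nx-HPi-Lp mice spread across most of the range of all the others, and only 5/6 Nx-LPi-Lp and 5/6 Nx-HPi-Hp did not overlap. No comparison was called: the log2 fold change of Klf5 was 0.59 (SE 0.41) in 5/6 Nx-HPi-Lp against Sham and 0.91 (SE 0.30) in 5/6 Nx-HPi-Hp against 5/6 Nx-LPi-Lp, with edgeR adjusted p of 0.28 and 0.52. These intervals are wide enough to hold a 2-fold difference.

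Myh10 fell in every 5/6 Nx group, and most in 5/6 Nx-HPi-Lp. Myh10 (ENSMUSG00000020900, mm10 chr11:68691559-68816632, plus strand) encodes non-muscle myosin heavy chain IIB, which moves actin in dividing and migrating cells. Its FPKM was 49.3, 52.5, 36.3 and 45.2 in Sham and 8.79, 6.61, 10.5 and 6.76 in 5/6 Nx-HPi-Lp. It was 17.6, 18.4, 12.3 and 42.8 in 5/6 Nx-HPi-Hp and 15.2, 15.8, 22.3 and 28.0 in 5/6 Nx-LPi-Lp. Every 5/6 Nx-HPi-Lp mouse was below every other mouse, and 11 of the 12 5/6 Nx mice were below all Sham mice, the exception being 5/6 Nx-HPi-Hp replicate 4. The group order ran from Sham at 45.8 ± 7.01 (mean ± SD, n = 4) through 5/6 Nx-HPi-Hp at 22.8 ± 13.6 and 5/6 Nx-LPi-Lp at 20.3 ± 6.02 to 5/6 Nx-HPi-Lp at 8.16 ± 1.84, and the middle groups did not differ beyond their spread.

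In edgeR, Myh10 was 5.73-fold lower in 5/6 Nx-HPi-Lp than in Sham (log2 fold change -2.52, SE 0.19, adjusted p = 2.1e-05) and 2.50-fold lower than in 5/6 Nx-LPi-Lp (-1.32, SE 0.24, adjusted p = 0.0072). It was 2.81-fold lower than in 5/6 Nx-HPi-Hp (-1.49, SE 0.37, adjusted p = 0.029). That last call did not hold on leaving out replicate 2 (adjusted p = 0.072) or 4 (0.094) of 5/6 Nx-HPi-Lp, without 5/6 Nx-HPi-Hp replicate 2 (0.059), and without 5/6 Nx-HPi-Hp replicate 4, where the log2 fold change was -0.97. Against Sham, Myh10 fell by 1.16 on the log2 scale in 5/6 Nx-LPi-Lp (SE 0.21, adjusted p = 0.0049). It fell by 1.01 in 5/6 Nx-HPi-Hp (SE 0.35, adjusted p = 0.049), at the edge of both thresholds, and there the call was lost on leaving out any 1 library other than 5/6 Nx-HPi-Hp replicate 4 (adjusted p = 0.063 to 0.12).

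The contractile genes moved the same way as Myh10. All 11 contractile genes listed were called lower in 5/6 Nx-HPi-Lp than in Sham, with a median log2 fold change of -2.73, 9 were called lower than in 5/6 Nx-HPi-Hp (median -1.70), and 10 lower than in 5/6 Nx-LPi-Lp (median -1.76). Of all genes, 7.18%, 3.11% and 3.98% were called lower in these comparisons. The largest changes against Sham were in Synpo2 (-3.13), which encodes an actin-bundling protein of the Z-disc and dense bodies, Myh11 (-2.98), the smooth muscle myosin heavy chain, and Lmod1 (-2.92), which nucleates smooth muscle actin filaments. Against Sham, 2 of the 11 were called lower in 5/6 Nx-HPi-Hp (0 on leaving out any library but 5/6 Nx-HPi-Hp replicate 4, and 7 without that one) and 3 in 5/6 Nx-LPi-Lp (1 without Sham replicate 2, without 5/6 Nx-LPi-Lp replicate 1 or in the fit of all 16 libraries). Of all genes, 2.75% and 2.08% were called lower there. The count in 5/6 Nx-HPi-Lp against 5/6 Nx-HPi-Hp was 3 without 5/6 Nx-HPi-Lp replicate 4. Myh10 is read as a marker of the synthetic state, yet its RNA was lowest where that of the contractile genes was lowest.

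Myh10 was also set against Myh11 in the same mouse. The ratio of Myh10 to Myh11 FPKM was 0.0635, 0.0619, 0.0452 and 0.0597 in Sham and 0.0562, 0.0968, 0.0848 and 0.107 in 5/6 Nx-HPi-Lp. It was 0.0461, 0.0393, 0.0424 and 0.0527 in 5/6 Nx-HPi-Hp and 0.0468, 0.0406, 0.0429 and 0.0430 in 5/6 Nx-LPi-Lp. The ratio in 5/6 Nx-HPi-Lp lay above that of both other 5/6 Nx groups in all 4 mice, while 1 of them fell among the Sham mice. The log2 ratio was higher by 0.56 than in Sham, by 0.90 than in 5/6 Nx-HPi-Hp and by 0.96 than in 5/6 Nx-LPi-Lp, with p = 0.11, 0.029 and 0.029 in two-sided exact permutation tests (n = 4 and 4) and 0.14, 0.086 and 0.086 after adjustment over the 6 comparisons. None passed after adjustment, and 0.029 is the smallest unadjusted p that 4 against 4 allows. A higher ratio here means only that Myh11 was lower by a larger factor than Myh10.

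**Figure D3:**
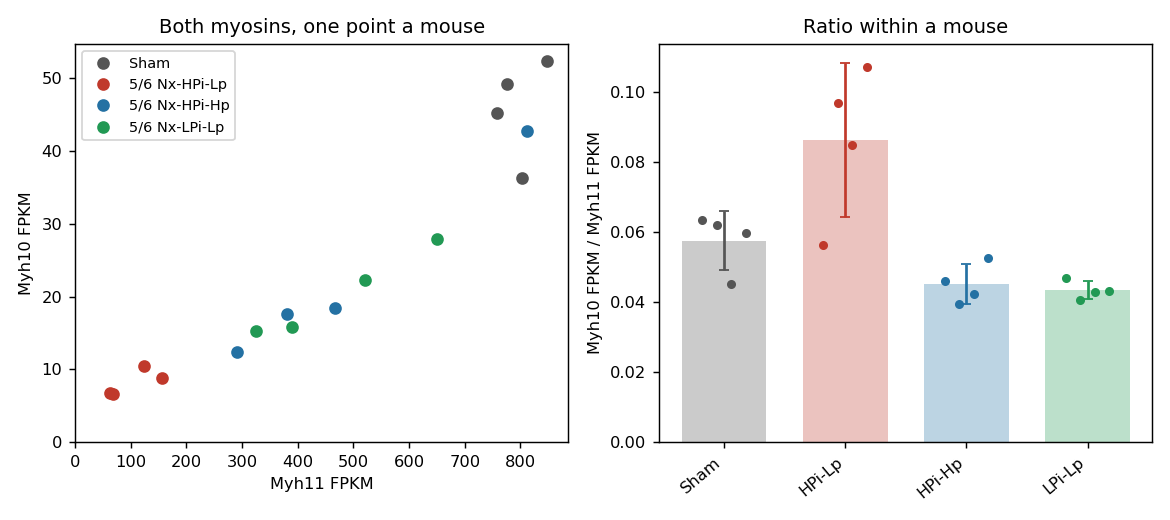
Left, Myh10 FPKM against Myh11 FPKM, one point a mouse and one colour a group, linear axes. Right, their ratio by group, with the mean as bar, SD as whisker and mice as points. The 4 5/6 Nx-HPi-Lp mice sit at the low end of both myosins, with ratios of 0.0562 to 0.107.

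Of the related myosins, Myh9, the other widely expressed non-muscle heavy chain, had a log2 fold change of -0.46 in 5/6 Nx-HPi-Lp against Sham and was not called. Myh14, another non-muscle heavy chain, rose from 0.245 ± 0.108 FPKM in Sham to 1.55 ± 0.796 in 5/6 Nx-HPi-Lp (SD, n = 4, log2 fold change 2.63), and was also called higher in 5/6 Nx-HPi-Hp (2.31) and 5/6 Nx-LPi-Lp (3.12). Across the 16 libraries the genes whose log2(FPKM + 1) was most like that of Myh10 were Fhl1 (Pearson r = 0.989), Itga9 (0.989) and Synpo2 (0.988), out of 11560 genes with a mean of at least 1 FPKM. These correlations, and those given further on, carry the differences between the groups and are descriptions.

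Lgals3 showed the largest rise of the 8 genes, and it was confined to 5/6 Nx-HPi-Lp among these groups at the 2-fold threshold. Lgals3 (ENSMUSG00000050335, mm10 chr14:47367751-47386160, plus strand) encodes galectin-3, a secreted lectin that binds galactosides on cell surfaces and matrix. Its FPKM was 10.2, 9.16, 11.4 and 9.06 in Sham and 56.7, 89.0, 44.4 and 66.2 in 5/6 Nx-HPi-Lp. It was 12.8, 13.1, 14.7 and 11.7 in 5/6 Nx-HPi-Hp and 13.0, 12.3, 11.1 and 12.8 in 5/6 Nx-LPi-Lp. The lowest 5/6 Nx-HPi-Lp mouse was still about 3 times the highest mouse of any other group. In edgeR, Lgals3 was 6.31-fold higher in 5/6 Nx-HPi-Lp than in Sham (log2 fold change 2.66, SE 0.20, adjusted p = 2.3e-05). It was 4.91-fold higher than in 5/6 Nx-HPi-Hp (2.30, SE 0.21, adjusted p = 0.0012) and 5.21-fold higher than in 5/6 Nx-LPi-Lp (2.38, SE 0.21, adjusted p = 0.00052). All 3 calls held in every alternative run.

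Lgals3 differed little from Sham in the other 5/6 Nx groups. Its log2 fold change against Sham was 0.39 (SE 0.13) in 5/6 Nx-HPi-Hp and 0.32 (SE 0.11) in 5/6 Nx-LPi-Lp, with edgeR adjusted p of 0.046 and 0.044, both far below 2-fold. These results did not hold in every alternative: the adjusted p reached 0.19 in 5/6 Nx-HPi-Hp and 0.22 in 5/6 Nx-LPi-Lp, and was above 0.05 in 7 of 8 fits of each that left out 1 library. In FPKM, 5/6 Nx-LPi-Lp and Sham overlapped. The galectin relatives did not all follow: Lgals9 rose with a log2 fold change of 1.35 in 5/6 Nx-HPi-Lp against Sham, while Lgals1, at 804 ± 57.9 FPKM in Sham the most abundant of the galectins listed, was 583 ± 64.8 (SD, n = 4, log2 fold change -0.50, not called). Lgals3bp, whose product binds galectin-3, was called higher against Sham in 5/6 Nx-HPi-Lp (1.70) and in 5/6 Nx-HPi-Hp (1.28).

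The promoters of Lgals3 and Myh10 are shown because these are the members with the largest called changes, in opposite directions, against Sham. The windows are RefSeq's, build GRCm38.p6, from 250 bases before to 50 bases after a transcript start, on the gene's own strand: chr14:47373610-47373909 for Lgals3, inside the longer gene model of the count table, and chr11:68691665-68691964 for Myh10. Capitals mark the letters GGGCGG (a GC box) and CACCC, the core of the motif bound by Kruppel-like factors, on either strand, so that CCGCCC and GGGTG are also in capitals.
Lgals3: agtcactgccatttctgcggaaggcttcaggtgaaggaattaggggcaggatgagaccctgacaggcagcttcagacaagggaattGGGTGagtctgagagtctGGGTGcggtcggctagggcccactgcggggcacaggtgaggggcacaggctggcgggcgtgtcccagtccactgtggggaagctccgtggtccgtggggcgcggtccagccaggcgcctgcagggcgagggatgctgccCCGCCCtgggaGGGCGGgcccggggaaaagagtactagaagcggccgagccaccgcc
Myh10: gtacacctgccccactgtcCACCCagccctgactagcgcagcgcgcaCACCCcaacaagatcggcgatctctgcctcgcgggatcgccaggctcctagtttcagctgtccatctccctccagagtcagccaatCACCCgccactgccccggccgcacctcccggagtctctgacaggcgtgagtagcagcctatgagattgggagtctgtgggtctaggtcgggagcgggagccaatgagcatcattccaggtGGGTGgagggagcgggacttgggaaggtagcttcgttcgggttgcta
The Lgals3 window held GGGCGG in 2 places and CACCC in 2, and the Myh10 window held CACCC in 4 places and GGGCGG in 0, with no overlapping matches. Of all 32851 promoter windows of this length, 35.7% held GGGCGG and 57.5% held CACCC, so neither match sets these promoters apart. Among the other members in the table, GGGCGG was present for Klf4, Vcan and Tnc, and TATAAA (in 13.6% of all windows) for Tnc and for 1 of the 2 windows of Postn. The letters TGACTCA (an AP-1 site, 5.20% of windows) and the CArG box (1.63%) were not in any of these windows.

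Ly6a was the second gene to rise in 5/6 Nx-HPi-Lp, with more spread between mice. Ly6a (ENSMUSG00000075602, mm10 chr15:74994877-74998031, minus strand) encodes Sca-1, a lipid-anchored surface protein. Its FPKM was 83.6, 76.0, 81.4 and 62.7 in Sham and 106.5, 283, 190 and 191 in 5/6 Nx-HPi-Lp. It was 134, 84.4, 109 and 95.7 in 5/6 Nx-HPi-Hp and 78.0, 79.4, 73.2 and 76.4 in 5/6 Nx-LPi-Lp. All 5/6 Nx-HPi-Lp mice lay above Sham and 5/6 Nx-LPi-Lp, replicate 1 fell among 5/6 Nx-HPi-Hp, and every 5/6 Nx-HPi-Hp mouse lay above both remaining groups. The order was 5/6 Nx-HPi-Lp, 5/6 Nx-HPi-Hp, then 5/6 Nx-LPi-Lp and Sham, the last pair at 76.7 ± 2.64 and 75.9 ± 9.40 (SD, n = 4).

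In edgeR, Ly6a was 2.48-fold higher in 5/6 Nx-HPi-Lp than in Sham (log2 fold change 1.31, SE 0.25, adjusted p = 0.0022) and 2.52-fold higher than in 5/6 Nx-LPi-Lp (1.33, SE 0.26, adjusted p = 0.0089). Against 5/6 Nx-HPi-Hp the log2 fold change was 0.86 (SE 0.28, adjusted p = 0.067), which became 1.06 (adjusted p = 0.018) once replicate 1 of 5/6 Nx-HPi-Lp was left out, so that 1 library decided this call. Ly6a stood 0.48 above Sham in 5/6 Nx-HPi-Hp (SE 0.17, edgeR adjusted p = 0.059) and 0.03 above it in 5/6 Nx-LPi-Lp (SE 0.11, adjusted p = 0.85). Of its relatives, Ly6c1 was called higher in 5/6 Nx-HPi-Lp than in Sham, from 32.0 ± 3.02 to 112 ± 23.2 FPKM (SD, n = 4), while Ly6c2 (log2 fold change 0.86) and Ly6e (0.74) were not. How reads shared by these similar genes were counted is not given in the sources used here, so the split between them is uncertain.

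Markers of several other cell types were called higher along with Lgals3 and Ly6a. All 10 macrophage markers listed were called higher in 5/6 Nx-HPi-Lp than in Sham, 9 higher than in 5/6 Nx-HPi-Hp and 10 higher than in 5/6 Nx-LPi-Lp, and 5, 7 and 8 of the 10 fibroblast markers were. Of all genes, 15%, 5.01% and 7.90% were called higher in these comparisons. The summed macrophage FPKM was 548.9, 1999, 1178 and 1053 across 5/6 Nx-HPi-Lp mice, 166.1 to 254.0 in Sham, 258.2 to 514.4 in 5/6 Nx-HPi-Hp and 164.8 to 298.8 in 5/6 Nx-LPi-Lp. The summed fibroblast FPKM was 973.1, 4229, 1817 and 1783 in 5/6 Nx-HPi-Lp, 633.9 to 882.1 in Sham, 405.8 to 911.8 in 5/6 Nx-HPi-Hp and 391.3 to 499.4 in 5/6 Nx-LPi-Lp. No marker on either list was at 0 in every library. Of the sympathetic neuron markers tested, 6 of 7 were called higher in 5/6 Nx-HPi-Lp than in Sham (median log2 fold change 6.69), against 15% of all genes. So were 7 of the 8 Schwann cell markers tested (2.77). Some neuron markers stood near 0 in Sham, such as Dbh at 0.0389 FPKM. Against Sham, 6 neuron markers passed the filter on low counts in 5/6 Nx-HPi-Hp and 4 in 5/6 Nx-LPi-Lp. The summed neuron FPKM was 42.8 to 64.1 in Sham and 38.2 to 855.8 in 5/6 Nx-HPi-Lp, with replicate 2 below every Sham mouse. Against 5/6 Nx-LPi-Lp 3 of 10 neuron markers were called higher, where 7.90% of all genes were. Against 5/6 Nx-HPi-Hp 2 of 10 were, where 5.01% of all genes were. In either, 0 of 9 Schwann cell markers were called higher. Of the 10 T and B cell markers, 0 were called higher and 1 lower in 5/6 Nx-HPi-Lp than in Sham, where 15% and 7.18% of all genes were. The summed Schwann cell FPKM was 181.6, 21.1, 31.4 and 48.8 in 5/6 Nx-HPi-Lp and 12.3 to 15.8 in Sham, with its lowest value in the mouse with the highest Lgals3.

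The mouse with the highest macrophage and fibroblast sums, 5/6 Nx-HPi-Lp replicate 2, also had the highest Lgals3 and Ly6a, and replicate 1, with the lowest of these sums in its group, had the lowest Ly6a of its group but not the lowest Lgals3. The genes most like Ly6a over the 16 libraries were Fcgr1 (r = 0.976), Cd14 (0.973) and Irf5 (0.968), of which Fcgr1 and Cd14 are on the macrophage list. Those most like Lgals3 were Chl1 (0.984), a neural adhesion molecule, Eps8 (0.979) and Col8a1 (0.979), a short-chain collagen of the vessel wall. Endothelial markers summed to 229.9 to 286.9 in 5/6 Nx-HPi-Lp and 169.1 to 220.5 in Sham. In this comparison 3 of 10 were called higher and 0 lower, where 15% and 7.18% of all genes were. The list was split: mean FPKM was below Sham for Pecam1 (68.4 to 47.8), Vwf (12.85 to 10.08), Ptprb (8.84 to 7.73) and Tek (10.55 to 10.1). The part of these cell types in the Lgals3 and Ly6a results was not tested.

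**Figure D4:**
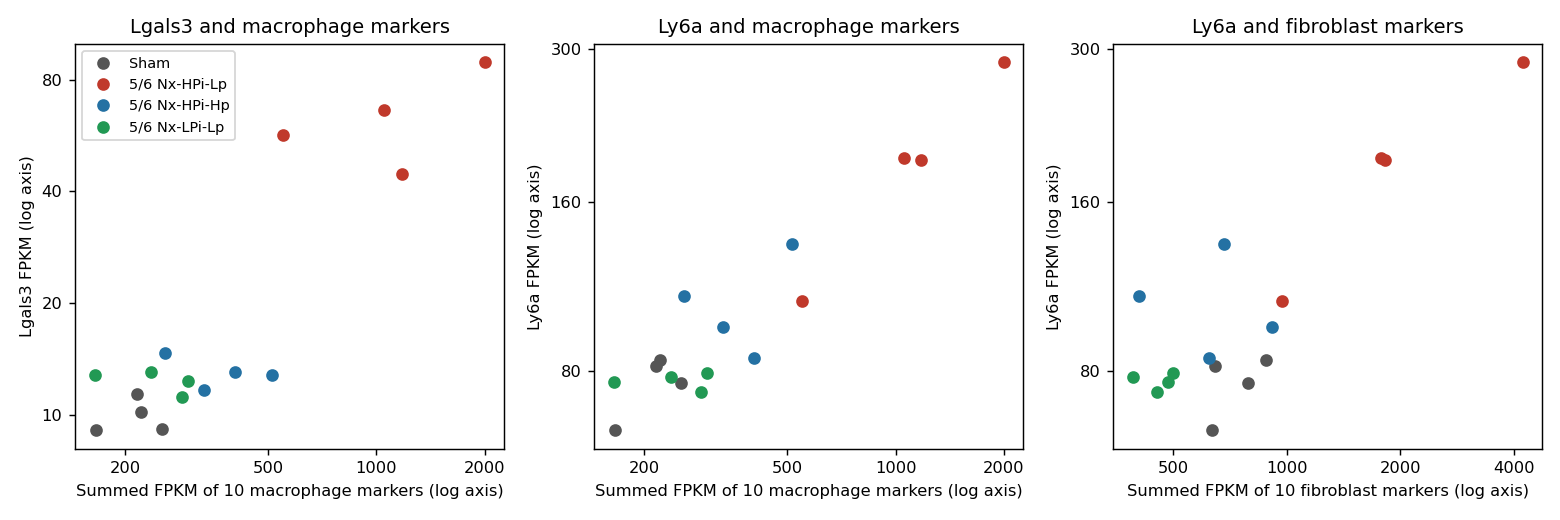
Lgals3 FPKM against the summed FPKM of 10 macrophage markers, and Ly6a FPKM against that sum and against the sum of 10 fibroblast markers, all on log axes, one point a mouse and one colour a group. The 5/6 Nx-HPi-Lp mice span 548.9 to 1999 on the macrophage axis, above the 514.4 reached elsewhere.

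The 3 matrix genes did not rise in 5/6 Nx-HPi-Lp against Sham, and Vcan fell in the other two 5/6 Nx groups. Vcan (ENSMUSG00000021614, mm10 chr13:89655312-89742509, minus strand) encodes versican, a large proteoglycan that binds hyaluronan. Its FPKM was 6.26, 8.29, 12.8 and 7.56 in Sham and 4.58, 10.9, 6.36 and 6.86 in 5/6 Nx-HPi-Lp. It was 3.59, 3.19, 1.84 and 5.26 in 5/6 Nx-HPi-Hp and 2.41, 3.90, 5.43 and 3.66 in 5/6 Nx-LPi-Lp. Sham and 5/6 Nx-HPi-Lp overlapped, as did the other two groups with each other, and neither of those 2 overlapped with Sham.

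In edgeR, Vcan was 2.52-fold lower than in Sham in 5/6 Nx-HPi-Hp (log2 fold change -1.33, SE 0.31, adjusted p = 0.015) and 2.24-fold lower in 5/6 Nx-LPi-Lp (-1.17, SE 0.27, adjusted p = 0.012). The second call was lost without Sham replicate 3 (-0.92) or 5/6 Nx-LPi-Lp replicate 1 (-0.99), on size and not on p. In 5/6 Nx-HPi-Lp, Vcan differed from Sham by -0.31 (SE 0.28, edgeR adjusted p = 0.39). It stood 1.04 above 5/6 Nx-HPi-Hp (SE 0.34, edgeR adjusted p = 0.070) and 0.90 above 5/6 Nx-LPi-Lp (SE 0.30, adjusted p = 0.062), neither of them called. The first of these was called by DESeq2 (1.03, adjusted p = 0.021), in the fit of all 16 libraries (1.08, adjusted p = 0.026), and without 5/6 Nx-HPi-Lp replicate 1 (1.199) or 5/6 Nx-HPi-Hp replicate 4 (1.32). The second was called without 5/6 Nx-HPi-Lp replicate 1 (1.07). Vcan overlaps Gm4117 and Gm16318 on the other strand, and these had at most 169 and 0 counts a library, against 342 to 8790 for Vcan. Whether counting used strand is not given in the sources used here.

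Tnc (ENSMUSG00000028364, mm10 chr4:63959785-64047015, minus strand) encodes tenascin-C, a matrix glycoprotein that loosens cell attachment during remodelling. Its FPKM was 12.8, 15.4, 9.97 and 14.9 in Sham and 10.5, 20.2, 14.3 and 7.70 in 5/6 Nx-HPi-Lp. It was 5.87, 6.80, 5.67 and 17.2 in 5/6 Nx-HPi-Hp and 4.55, 3.90, 9.73 and 9.29 in 5/6 Nx-LPi-Lp. Sham and 5/6 Nx-HPi-Lp overlapped, all 5/6 Nx-LPi-Lp mice were below Sham, and 5/6 Nx-HPi-Hp split into 3 mice below Sham and replicate 4 above it. The log2 fold change of Tnc against Sham was -0.04 (SE 0.26) in 5/6 Nx-HPi-Lp, -0.58 (SE 0.34) in 5/6 Nx-HPi-Hp and -0.93 (SE 0.30) in 5/6 Nx-LPi-Lp, with edgeR adjusted p of 0.91, 0.21 and 0.038. None was called, the last on size alone.

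For Tnc, 1 library decided both results of 5/6 Nx-HPi-Hp. Without 5/6 Nx-HPi-Hp replicate 4, the log2 fold change against Sham was -1.13 (edgeR adjusted p = 0.00081), and that of 5/6 Nx-HPi-Lp over 5/6 Nx-HPi-Hp was 1.11 (adjusted p = 0.039) in place of 0.55. In 5/6 Nx-LPi-Lp, Tnc was called lower than Sham without Sham replicate 3 (-1.05) and without 5/6 Nx-LPi-Lp replicate 3 (-1.15) or 4 (-1.12). The gene 8030451A03Rik, which overlaps Tnc on the other strand, had at most 44 counts. Genes most like Tnc were Golt1b (r = 0.942), Ckap4 (0.923) and Col4a2 (0.919), the last a chain of basement membrane collagen, and those most like Vcan were Tmem165 (0.934), Manba (0.934) and Efhd2 (0.923).

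Postn (ENSMUSG00000027750, mm10 chr3:54361109-54391037, plus strand) encodes periostin, a secreted protein that helps cross-link collagen and binds integrins. Its FPKM was 120, 147, 142 and 126 in Sham and 58.7, 93.5, 92.3 and 85.8 in 5/6 Nx-HPi-Lp. It was 74.2, 100.2, 66.8 and 171 in 5/6 Nx-HPi-Hp and 63.2, 67.4, 90.3 and 130 in 5/6 Nx-LPi-Lp. Every 5/6 Nx-HPi-Lp mouse was below every Sham mouse, whereas in each of the other two groups 3 mice were below Sham and replicate 4 was not. The log2 fold change of Postn against Sham was -0.72 (SE 0.16) in 5/6 Nx-HPi-Lp, -0.38 (SE 0.29) in 5/6 Nx-HPi-Hp and -0.59 (SE 0.23) in 5/6 Nx-LPi-Lp, with edgeR adjusted p of 0.0053, 0.32 and 0.075. Only the first passed on p in these fits, and it was below 2-fold. Its adjusted p reached 0.073 under another setting. With 1 library left out, the edgeR adjusted p ranged from 0.0083 to 0.56 in 5/6 Nx-HPi-Hp and from 0.0054 to 0.17 in 5/6 Nx-LPi-Lp. The log2 fold changes there reached -0.74 and -0.85, so a lower Postn was not particular to 5/6 Nx-HPi-Lp. The 5/6 Nx groups did not differ from one another in Postn beyond their spread (edgeR adjusted p = 0.52, 0.84 and 0.86), and the genes most like it were Fam198b (r = 0.925), Enpp1 (0.924), which makes the calcification inhibitor pyrophosphate, and Plekho2 (0.920).

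Among the relatives of the matrix genes, Bcan and Tnn were called higher in 5/6 Nx-HPi-Lp than in Sham, at low levels. Bcan, the brevican gene, went from 0.0364 ± 0.0236 to 0.488 ± 0.296 FPKM (SD, n = 4, log2 fold change 3.65), and Tnn, the tenascin-W gene, from 0.340 ± 0.141 to 2.63 ± 2.84 (2.92). Over all 22 relatives tested, 5 were called higher and 0 lower in this comparison, where 15% and 7.18% of all genes were. In each comparison without 5/6 Nx-HPi-Lp, 21 passed the filter on low counts, so the 22 hold a gene let in by that group. Such a gene could hardly be called other than higher. Against 5/6 Nx-HPi-Hp 2 were called higher and 1 lower, where 5.01% and 3.11% of all genes were. These were 0 and 1 without replicate 3 or 4 of 5/6 Nx-HPi-Lp or replicate 2 of 5/6 Nx-HPi-Hp. Against 5/6 Nx-LPi-Lp 3 were called higher and 0 lower, where 7.90% and 3.98% of all genes were. The gene called lower against 5/6 Nx-HPi-Hp was Tnxb, which encodes tenascin-X (-1.32). Against Sham, 1 of 21 was called higher in 5/6 Nx-HPi-Hp and 2 in 5/6 Nx-LPi-Lp, where 9.41% and 8.79% of all genes were.

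The genes whose products make, cut or bind the matrix of these 3 genes were divided. Of the 16 partners tested in 5/6 Nx-HPi-Lp against Sham, 5 were called higher and 6 lower, where 15% and 7.18% of all genes were. In each comparison without 5/6 Nx-HPi-Lp, 15 passed the filter on low counts, so the 16 hold a gene let in by that group. Such a gene could hardly be called other than higher. Has2 was lowest in Sham among those called higher, at 0.0762 FPKM against 0.840 in 5/6 Nx-HPi-Lp. Has1 (log2 fold change 4.23) and Has2 (3.43), which make the hyaluronan that versican binds, Adamts4 (3.54), a protease that cleaves versican, Cd44 (1.64), a hyaluronan receptor, and Lgals3bp were higher. Levels of the first 3 stayed modest, with Has1 at 0.200 ± 0.0727 FPKM in Sham and 3.83 ± 1.94 in 5/6 Nx-HPi-Lp (SD, n = 4). The 6 called lower were integrin chains and a link protein, led by Itga8 (-3.45), an integrin that can bind tenascin-C, which went from 291 ± 29.5 to 27.1 ± 12.8 FPKM (SD, n = 4).

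Against the other 5/6 Nx groups the calls of partners were fewer and depended on single libraries. In 5/6 Nx-HPi-Lp, 4 were called higher and 2 lower than in 5/6 Nx-HPi-Hp, where 5.01% and 3.11% of all genes were. The lower ones were Itga8 (-1.77) and Itga9 (-1.68). Each of these lost its call in 7 of 8 fits that left out 1 library (adjusted p up to 0.13) and in the replicate block (0.19 and 0.16), and the partner count was 3 higher and 0 lower without replicate 3 or 4 of 5/6 Nx-HPi-Lp or replicate 2 of 5/6 Nx-HPi-Hp. Against 5/6 Nx-LPi-Lp, 4 were called higher and 3 lower, where 7.90% and 3.98% of all genes were. The lower ones were Itga8 (-1.99), Itga9 (-1.34) and Hapln1 (-2.45), which encodes the link protein that joins versican to hyaluronan. Itga8 kept this call in all 8 such fits, but Itga9 lost it in 5 and Hapln1 in 7 (adjusted p up to 0.11), and both lost it in the replicate block (0.0505 and 0.061). The count was 3 higher and 1 lower without replicate 2 or 4 of 5/6 Nx-HPi-Lp or replicate 3 or 4 of 5/6 Nx-LPi-Lp.

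Of the 15 partners tested in 5/6 Nx-HPi-Hp against Sham, 1 was called higher and 2 lower, where 9.41% and 2.75% of all genes were. Of the 15 tested in 5/6 Nx-LPi-Lp against Sham, 0 were called higher and 4 lower, where 8.79% and 2.08% of all genes were. The first comparison gave 1 call in all without Sham replicate 2 or 5/6 Nx-HPi-Hp replicate 2, and 7, of which 6 were lower, without 5/6 Nx-HPi-Hp replicate 4. The second gave 2 without 5/6 Nx-LPi-Lp replicate 1, and 2 to 6 over all libraries left out in turn.

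A further 19 genes reported for modulated smooth muscle were counted in the same way. In 5/6 Nx-HPi-Lp against Sham, 9 of the 19 were called higher and 2 lower (median log2 fold change 1.14), where 15% and 7.18% of all genes were. The largest rises were in Spp1 (9.12), which encodes osteopontin and went from 0.791 ± 0.178 to 452 ± 270 FPKM (SD, n = 4), Timp1 (4.77), an inhibitor of matrix metalloproteinases, and Ccl2 (3.46), which attracts monocytes. The 2 called lower were Vim (-1.18), the vimentin filament gene, and Krt18 (-1.29), a keratin gene. Lum and Dcn are on this list and on the fibroblast list, and Cd44 is also a partner.

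In 5/6 Nx-HPi-Lp against 5/6 Nx-HPi-Hp, 10 of the 19 were called higher and 0 lower (median 1.22), where 5.01% and 3.11% of all genes were. Against 5/6 Nx-LPi-Lp, 13 were called higher and 1 lower (median 1.46), where 7.90% and 3.98% of all genes were. The lower one was Krt18 (-1.21). This call of Krt18 was lost in 5 of 8 fits that left out 1 library (adjusted p = 0.057 to 0.081, without replicate 1, 2 or 4 of 5/6 Nx-HPi-Lp or replicate 2 or 4 of 5/6 Nx-LPi-Lp) and in the replicate block (0.057). In 5/6 Nx-HPi-Hp against Sham, 0 were called higher and 1 lower (median -0.19), where 9.41% and 2.75% of all genes were. In 5/6 Nx-LPi-Lp against Sham, 0 were called higher and 0 lower (median -0.19), where 8.79% and 2.08% of all genes were. The genes most like Klf4 over the 16 libraries included one of the 19, Thbs1 (r = 0.879), beside Brox (0.880) and Fosl2 (0.879), an AP-1 subunit. For Klf5 the most alike were Olfm2 (0.851), Gpr37l1 (0.826) and Scg3 (0.808). Gpr37l1 and Scg3 are known from nervous tissue. The summed FPKM of 10 sympathetic neuron markers was 855.8, 38.2, 157 and 666 across 5/6 Nx-HPi-Lp mice, in the same order as Klf5. Replicates 2 and 3, the lower in both, were also the deepest libraries. The lowest Klf5 and the lowest sum fell in the same mouse in every group, but the highest did so only in 5/6 Nx-HPi-Lp. The part of nerve RNA in the Klf5 values was not tested.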

How the data were processed

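Total RNA of mouse aorta was enriched for mRNA and sequenced. Per the study's methods and the labels, the authors used HISAT2 for alignment of cleaned reads to mm10, and featureCounts 1.5.0-p3 for gene counts. They deposited whole-number counts, unnormalized, and FPKM. In the deposited FPKM the denominators were proportional to DESeq2 size factors, so values were already scaled between libraries. Strand and multi-mapping options are not given in the sources used here. Groups follow the labels. The 8 genes and all lists were chosen with earlier results of these data known.

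The count test was edgeR's (version 4.0.16, R 4.3.3; filterByExpr, TMM, glmQLFit, glmQLFTest, Benjamini-Hochberg over all genes), in fits of the 8 libraries compared. SE is the absolute log2 fold change over the square root of F. Alternatives were DESeq2 1.42.0, limma 3.58.1 on log2(FPKM + 1) and log2(FPKM + 0.1) with a mean FPKM over 0.5, a replicate block, RLE scaling, no filter, a filter of 10 counts or more in every library, one fit of all 16, no fold threshold, mitochondrially encoded genes left out, and each library left out. The labels give no batch. The edgeR and DESeq2 fits were run on simulated counts of 5/6 Nx-HPi-Lp against Sham only. The simulated dispersion was the same for all genes and both groups, so groups of unequal spread were not covered. Ratios were tested by exact permutation over 70 splits. No pair of replicates was a copy, with a lowest chi-square per gene of 20.03. Totals of 13659525 to 57276915 counts set the precision, and counting error is largest for Klf5. Besides the 8 genes, from each list the 3 genes with the largest called, non-overlapping change in 5/6 Nx-HPi-Lp against Sham were named, with any called against the majority of their list, and for each of the 8 the 3 genes with the highest Pearson r. Myh9, Lgals1, Lgals9, Ly6c1, Ly6c2, Ly6e, Klf2, Klf10 and Klf15 were named after their values were seen. Promoter windows came from RefSeq and were found for 6 of the 8 genes.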

Additional observations from a re-analysis of the deposited data

Results flagged for a closer look

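Of 36 groups of 4 values examined (the 8 genes and the Myh10 to Myh11 ratio in 4 groups), 2 held a mouse far from its group by Dixon's criterion, and chance alone gives about 1 in 20. Klf4 in 5/6 Nx-LPi-Lp replicate 1 was 11.51 FPKM, against 16.8 to 17.6 in the other 3 mice. Tnc in 5/6 Nx-HPi-Hp replicate 4 was 17.18 FPKM, against 5.67 to 6.80 in the others.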

How the results depend on the processing

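The fold changes of the 8 genes in 6 comparisons gave 816 values under alternatives, of which 757 kept direction and call, 16 lost a call, 13 gained one and 30, all uncalled, turned direction. Without a fold threshold 5 of the 8 were called in 5/6 Nx-HPi-Lp against Sham, with 3753 genes higher and 3336 lower of all 16513. In 5/6 Nx-LPi-Lp against Sham 4 were called, with 2781 genes higher and 2334 lower of all 16071. With limma on log2(FPKM + 1), 1 was called in 5/6 Nx-LPi-Lp against Sham, with 683 genes higher and 187 lower of all 14619. With at least 10 counts in every library, 1 was called in 5/6 Nx-HPi-Hp against Sham, which was Vcan, and Myh10 lost its call on size (-0.9987). There 1319 genes were higher and 372 lower of all 13722. Leaving out 1 library gave 1 to 4 called in 5/6 Nx-HPi-Lp against 5/6 Nx-HPi-Hp, with 418 to 932 of all genes higher and 216 to 626 lower. It gave 1 to 3 in 5/6 Nx-HPi-Hp against Sham, with 874 to 2082 genes higher and 217 to 1079 lower. It also gave 1 to 3 in 5/6 Nx-LPi-Lp against Sham, with 1130 to 1635 genes higher and 203 to 598 lower.

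Replicate numbers did not pair the mice: same-numbered libraries had correlations of -0.285 to 0.535 in their deviations from group means. With a replicate block, 1 of the 8 was called in 5/6 Nx-HPi-Lp against 5/6 Nx-HPi-Hp, with 255 genes higher and 116 lower of all 16198. Myh10 stood there at -1.33 (edgeR adjusted p = 0.11). Of the 11 contractile genes 0 were called there, and no other call of the 8 genes changed. For the ratio, the smallest p that a blocked exact sign-flip permutation test allows is 0.125.

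The largest value after a turn of direction was -0.358, for Myh10 below. The log2 fold change became 0.008132 for Tnc in 5/6 Nx-HPi-Lp against Sham with all 16 libraries, 0.001035 for Klf5 in 5/6 Nx-HPi-Lp against 5/6 Nx-HPi-Hp without mitochondrial genes, 0.002766 for Klf4 in 5/6 Nx-LPi-Lp against Sham with at least 10 counts, and -0.03017 for Ly6a there with no filter. With 1 library left out, they ranged from -0.306 to 0.158 for Tnc in 5/6 Nx-HPi-Lp against Sham. Against 5/6 Nx-HPi-Hp, 5/6 Nx-HPi-Lp gave -0.337 to 0.216 for Klf5 and -0.508 to 0.0454 for Postn, and against 5/6 Nx-LPi-Lp -0.245 to 0.186 for Postn. Against Sham, Klf4 ranged from -0.196 to 0.0167 in 5/6 Nx-HPi-Hp and from -0.136 to 0.115 in 5/6 Nx-LPi-Lp, and Ly6a from -0.0581 to 0.0732 in the latter. For 5/6 Nx-HPi-Hp over 5/6 Nx-LPi-Lp the ranges were -0.178 to 0.0530 (Klf4), -0.358 to 0.362 (Myh10), -0.435 to 0.0557 (Vcan), -0.188 to 0.566 (Tnc), -0.150 to 0.480 (Postn) and -0.0251 to 0.116 (the log2 Myh10 to Myh11 ratio). The causes were not tested. Of 417 alternative values of the other genes named by rule, 43 lost a call, nearly all for Itga8, Itga9, Hapln1 and Krt18 against other diets, and 0 turned direction.

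Each value rests on 4 mice, and whole aorta does not assign RNA to cell types.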
